A study of Homo sapiens with 6 samples.

Results

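Metallothioneins are small, cysteine-rich proteins that hold zinc and copper in the cell, and zinc transporters move zinc across its membranes. Transporters of the SLC30A family carry zinc out of the cytosol, into organelles or out of the cell, and those of the SLC39A family carry it into the cytosol. When free zinc or cadmium rises, the zinc finger factor MTF1 binds metal response elements in the promoters of metallothionein genes and of SLC30A1 and turns them on. Oxidants and glucocorticoids are also known to induce metallothioneins. Metallothionein 1 has many near-identical copies in the human genome, several of them pseudogenes. Most of the copies measured here lie in a cluster with metallothioneins 2A, 3 and 4 on chromosome 16.

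The genes were chosen by symbol: every measured MT1 gene or pseudogene, MT2A, MT3, MT4, the factors MTF1 and MTF2, and all SLC30A and SLC39A genes. This gave 41 genes of the 18377 tested, namely 15 metallothioneins, 2 factors, 10 SLC30A genes and 14 SLC39A genes. All 41 were tested with no filter on low values. The level over all 6 arrays chose 1 probe set per gene, the brightest, and the difference between the groups was not used in that choice. The family itself was picked with the rise of MT2A, MT1G and MT1X in these arrays already known, so the tests below describe the genes and are not independent evidence that the family moved.

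The arrays compared TF-1 cells transfected with human PRL-3 (3 arrays, numbered 4 to 6) with TF-1 cells transfected with a control vector, named pEGFP in the labels (3 arrays, numbered 1 to 3). TF-1 is a human acute myeloid leukaemia line that depends on a cytokine, and both groups were cultured in RPMI medium supplemented with fetal bovine serum and human IL-3. The sources used here do not say whether each transfected line was a clone or a pool. The series set out to examine the part of PRL-3, a protein tyrosine phosphatase, in leukaemogenesis.

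Values are log2 of the deposited intensity of a probe set, and differences are PRL-3 minus control on that scale, with limma's moderated standard error. A gene passed at an adjusted p of 0.05 or less in limma, adjusted over all 18377 genes. PTP4A3, which encodes PRL-3, read 10.81, 10.93 and 10.79 on the PRL-3 arrays, against 7.92, 8.03 and 7.97 on the control arrays. PTP4A3 was higher by 2.87 ± 0.072 (adjusted p = 2.24e-06, limma), so the labels hold for the transfected gene. Of the 12 TF-1 markers looked for, 11 were measured, and their mean levels lay between the 53.0 and 99.9 percentile of all genes. Of 7 measured markers of other cells, such as CD3E, MS4A1 and EPCAM, the median lay at the 17.8 percentile and COL1A1 was highest at 62.1. These ranks are a rough guide, since probe sets differ in brightness. Median intensity per array ran from 89.8 to 92.9. Control array 1 and PRL-3 array 5 correlated at r = 0.9863 across genes, which lay above the r = 0.9861 of control arrays 1 and 3, so results are also given without these arrays where that changes a call.

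Promoter sequences were at hand for 28 of the 41 genes (RefSeq, GRCh38.p14, 250 bases before to 50 bases after the first listed start). The promoters below belong to MT2A, MT1X and MT1H, which were higher with PRL-3, to the zinc exporter gene SLC30A1, which was higher too, and to MT4, which did not pass. They are shown because metal response elements are the known route of metal control of this family. Capitals mark each match to the core of that element, searched as TGCACNC and TGCGCNC on both strands, with overlapping matches allowed.
MT2A, chr16:56608334-56608633, plus strand: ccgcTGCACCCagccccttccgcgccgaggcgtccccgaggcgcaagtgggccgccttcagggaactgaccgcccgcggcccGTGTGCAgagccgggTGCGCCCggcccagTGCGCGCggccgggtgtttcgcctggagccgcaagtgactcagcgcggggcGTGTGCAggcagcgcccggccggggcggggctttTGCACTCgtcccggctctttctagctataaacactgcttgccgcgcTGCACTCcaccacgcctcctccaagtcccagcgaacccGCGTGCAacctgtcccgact
MT1X, chr16:56682220-56682519, plus strand: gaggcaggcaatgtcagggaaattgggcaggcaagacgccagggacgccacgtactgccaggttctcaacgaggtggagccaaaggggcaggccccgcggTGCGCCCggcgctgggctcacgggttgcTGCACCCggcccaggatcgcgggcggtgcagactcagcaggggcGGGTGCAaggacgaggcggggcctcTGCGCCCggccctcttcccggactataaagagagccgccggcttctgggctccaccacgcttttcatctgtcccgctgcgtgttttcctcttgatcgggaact
MT1H, chr16:56669564-56669863, plus strand: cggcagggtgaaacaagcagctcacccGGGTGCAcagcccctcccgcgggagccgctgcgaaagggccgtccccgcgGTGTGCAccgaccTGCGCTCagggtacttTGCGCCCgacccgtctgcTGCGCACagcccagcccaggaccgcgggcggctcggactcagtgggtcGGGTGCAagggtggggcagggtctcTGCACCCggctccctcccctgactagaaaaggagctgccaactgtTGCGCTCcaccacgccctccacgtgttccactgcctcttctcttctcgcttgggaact
SLC30A1, chr1:211579112-211579411, minus strand: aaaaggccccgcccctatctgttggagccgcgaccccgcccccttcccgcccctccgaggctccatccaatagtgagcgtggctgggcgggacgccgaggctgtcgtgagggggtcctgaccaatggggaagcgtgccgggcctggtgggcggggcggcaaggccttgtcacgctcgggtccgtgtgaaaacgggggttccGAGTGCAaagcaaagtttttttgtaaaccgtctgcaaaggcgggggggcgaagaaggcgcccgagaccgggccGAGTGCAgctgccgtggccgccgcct
MT4, chr16:56564823-56565122, plus strand: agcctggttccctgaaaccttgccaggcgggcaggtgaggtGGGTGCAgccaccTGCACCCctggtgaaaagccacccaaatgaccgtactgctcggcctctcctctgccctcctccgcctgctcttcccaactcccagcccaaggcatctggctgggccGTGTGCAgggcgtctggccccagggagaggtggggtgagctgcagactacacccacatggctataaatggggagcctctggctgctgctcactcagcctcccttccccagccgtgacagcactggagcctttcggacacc

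The MT2A and MT1H promoters each held 8 matches to the core, MT1X held 4, MT4 held 3 and SLC30A1 held 2. MT1B, whose promoter is not printed, held 3. Of 27305 human promoters of the same length, 29.3% held at least 1 match, 2.27% at least 3, 0.593% at least 4 and 0.022%, which is 6 genes, at least 8. Among SLC30A and SLC39A genes 7 of 21 promoters held a match, a share near that of all promoters. The SLC39A8 promoter held 0 matches in this window. Matches in MT2A lay at positions -168, -153, -139, -88, -54 and -8 from the start among others, and those in MT1X at -150, -122, -78 and -53. The letters TATAAA stood at -29 in MT2A and MT4 and at -30 in MT1X, and 12% of all promoters held them on either strand. A core of the antioxidant response element, searched as TGACNNNGC on both strands, was found in 11 of 28 promoters, against 13.6% of all promoters. It stood in 2 of the 3 promoters of metallothioneins that rose (MT2A and MT1X, not MT1H) and in 1 of 2 others (MT1B). Among SLC30A and SLC39A genes 8 of 21 promoters held it, and SLC30A1 was the only 1 of these 8 to pass. A match describes the letters and is not a measured site. The printed genes did not stand in the same order by number of matches to the metal response core as by size of difference. MT1H had as many as MT2A, and MT1X with 4 differed between the groups by more than MT1H. The 3 promoters of metallothioneins that rose held 4 to 8 matches, and the 2 of those that did not pass held 3 each. Whether matches and differences are related was not tested.

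Of the 41 genes 11 rose with PRL-3 and 1 fell, while 7.69% of all genes passed in either direction. Of the 15 metallothionein genes 10 rose, 0 fell and 5 did not pass. Among all genes tested, 4.58% were higher and 3.11% lower. At an unadjusted p of 0.05 in limma, 12 of the 15 were higher and 0 lower, where 10.6% of all genes were higher. The median difference of the 15 was 0.57, against -0.015 for all genes. In 12 of the 15 every PRL-3 array lay above every control array, which held for 12.1% of all genes. RNA was read from whole cultures, so more cells with metallothionein RNA and more of it per cell cannot be told apart. MT2A, MT1G and MT1X stood apart from the other metallothioneins with differences of 2.32 to 2.37, about 5-fold in each, while the other 7 that rose lay between 0.33 and 0.70.

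**Figure D1:**
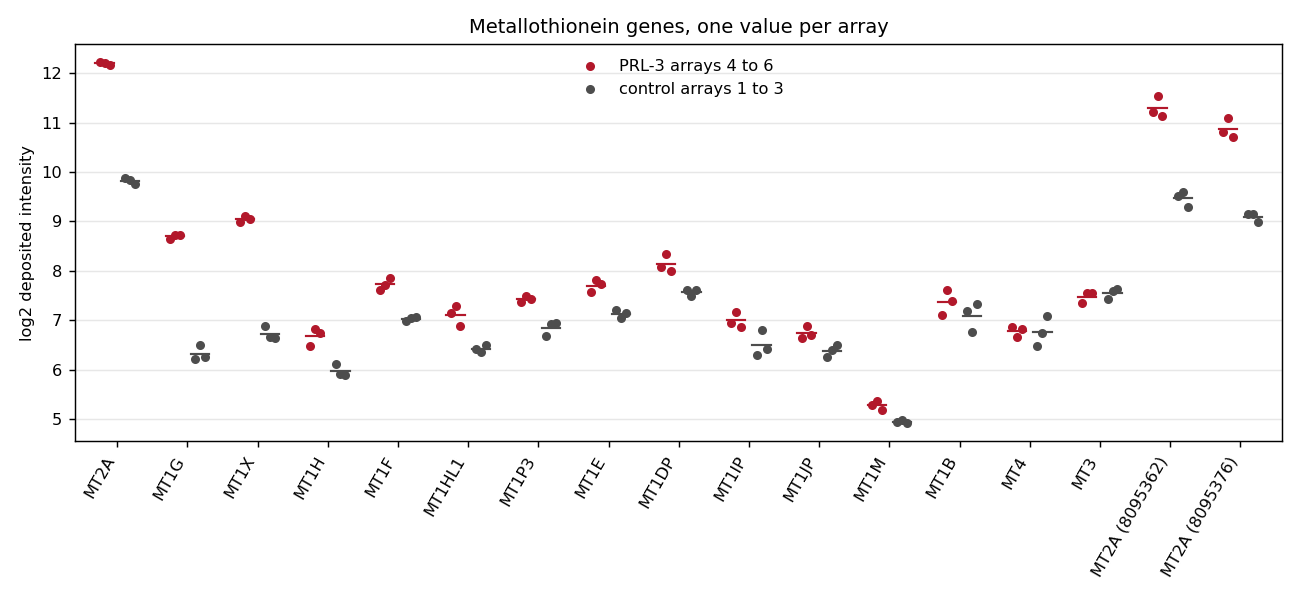
Log2 deposited intensity of each metallothionein gene on the 3 PRL-3 arrays (red, left of each pair) and the 3 control arrays (grey, right), with a line at each group mean; genes run from the largest to the smallest difference, and the 2 further probe sets annotated to MT2A stand last. The groups are far apart in MT2A, MT1G and MT1X, closer in the other MT1 genes, and overlap in MT1B, MT4 and MT3.

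MT2A, a metallothionein made in most human tissues, read 12.22, 12.21 and 12.15 on the PRL-3 arrays, against 9.87, 9.83 and 9.77 on the control arrays. All 3 PRL-3 values lay above all 3 control values, and the spread within a group was small beside the gap. The difference was 2.37 ± 0.066 (5.18-fold, adjusted p = 2.71e-06, limma). With 3 arrays against 3 the exact two-sided permutation test can go no lower than p = 0.1, which is the value it gave.

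Probe sets 8095362 and 8095376 were also annotated to MT2A. Probe set 8095362 read 11.21, 11.54 and 11.13 on the PRL-3 arrays, against 9.52, 9.58 and 9.29 on the control arrays. Probe set 8095376 read 10.81, 11.09 and 10.71 on the PRL-3 arrays, against 9.16, 9.15 and 8.98 on the control arrays. In both, PRL-3 array 5 was the highest of the 6 arrays and the groups did not overlap. Their differences were 1.83 ± 0.126 and 1.77 ± 0.109 (adjusted p = 0.000921 and 0.000637, limma, adjusted over all 28869 probe sets, of which 2.87% were higher). The nearest named probe sets by number belong to STAP1 and TMPRSS11E on chromosome 4, whereas those of the main MT2A probe set belong to OGFOD1 and NUP93 on chromosome 16, so these probe sets are not taken as a separate reading of MT2A.

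MT1G, an inducible metallothionein 1, read 8.63, 8.72 and 8.73 on the PRL-3 arrays, against 6.21, 6.51 and 6.25 on the control arrays. MT1X, another metallothionein 1 that is widely expressed, read 8.996, 9.114 and 9.048 on the PRL-3 arrays, against 6.879, 6.661 and 6.648 on the control arrays. In both genes the PRL-3 arrays lay close together and more than 2 log2 units above each control array. The differences were 2.37 ± 0.091 for MT1G and 2.32 ± 0.084 for MT1X (adjusted p = 1.2e-05 and 1.1e-05, limma). The log2 ratio of MT2A to MT1X within an array averaged 3.14 ± 0.074 in PRL-3 and 3.09 ± 0.093 in control arrays (SD, n = 3 each). The change in this ratio, 0.05, was smaller than the spread between arrays.

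A further 5 protein-coding MT1 genes rose by less. MT1H read 6.48, 6.82 and 6.73 on the PRL-3 arrays, against 6.11, 5.92 and 5.90 on the control arrays. MT1F read 7.62, 7.70 and 7.86 on the PRL-3 arrays, against 6.99, 7.04 and 7.06 on the control arrays. MT1E read 7.57, 7.81 and 7.72 on the PRL-3 arrays, against 7.21, 7.05 and 7.14 on the control arrays. In these 3 genes the groups did not overlap, and PRL-3 array 4 was the lowest of the PRL-3 arrays. They rose by 0.70 ± 0.105, 0.70 ± 0.080 and 0.57 ± 0.085 (adjusted p = 0.00683, 0.00219 and 0.00673, limma).

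MT1HL1, a metallothionein 1 copy on chromosome 1, read 7.14, 7.29 and 6.88 on the PRL-3 arrays, against 6.42, 6.36 and 6.51 on the control arrays. MT1M read 5.29, 5.37 and 5.17 on the PRL-3 arrays, against 4.95, 4.98 and 4.91 on the control arrays. The groups did not overlap in either gene, but the gap in MT1M was small, at 0.33 ± 0.074 (adjusted p = 0.0334, limma). MT1HL1 rose by 0.68 ± 0.109 (adjusted p = 0.00879, limma). MT1M lost its call whichever array was left out (adjusted p from 0.0523 to 0.128, limma), and MT1HL1 lost it without control array 2 (adjusted p = 0.0568, limma).

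Among the pseudogenes, MT1DP and MT1P3 rose. MT1DP, a transcribed pseudogene, read 8.08, 8.33 and 7.99 on the PRL-3 arrays, against 7.61, 7.50 and 7.61 on the control arrays. MT1P3, a pseudogene on chromosome 20, read 7.37, 7.49 and 7.43 on the PRL-3 arrays, against 6.67, 6.92 and 6.95 on the control arrays. PRL-3 array 5 was the highest array in both, and no values of the groups crossed. The differences were 0.56 ± 0.098 and 0.58 ± 0.089 (adjusted p = 0.0126 and 0.00732, limma), and MT1DP lost its call without control array 2 (adjusted p = 0.0745, limma). MT1IP and MT1JP, also transcribed pseudogenes, had no overlap between the groups but did not pass, at 0.49 ± 0.137 and 0.35 ± 0.092 (adjusted p = 0.0736 and 0.0589, limma). The copies are so alike that a probe set for one can pick up RNA of another. How much of the rise in a gene or pseudogene came from MT2A, MT1G or MT1X RNA was not tested.

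The metallothioneins with a narrower known distribution did not pass. MT3, first described in brain, read 7.34, 7.55 and 7.54 on the PRL-3 arrays, against 7.42, 7.59 and 7.62 on the control arrays. MT4, known from stratified epithelia, read 6.85, 6.66 and 6.82 on the PRL-3 arrays, against 6.47, 6.75 and 7.09 on the control arrays. In both the groups overlapped. The 95% confidence interval of the difference ran from -0.27 to 0.14 for MT3 and from -0.33 to 0.34 for MT4, so differences the size of that in MT1H lay outside both. MT1B read 7.10, 7.61 and 7.39 on the PRL-3 arrays, against 7.18, 6.75 and 7.34 on the control arrays. Its interval, from -0.12 to 0.67, was wide. No detection call was used here, so it is not known whether MT3, MT4 or the dimmer MT1 probe sets were near background. The intervals therefore describe the readings of these probe sets.

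**Figure D2:**
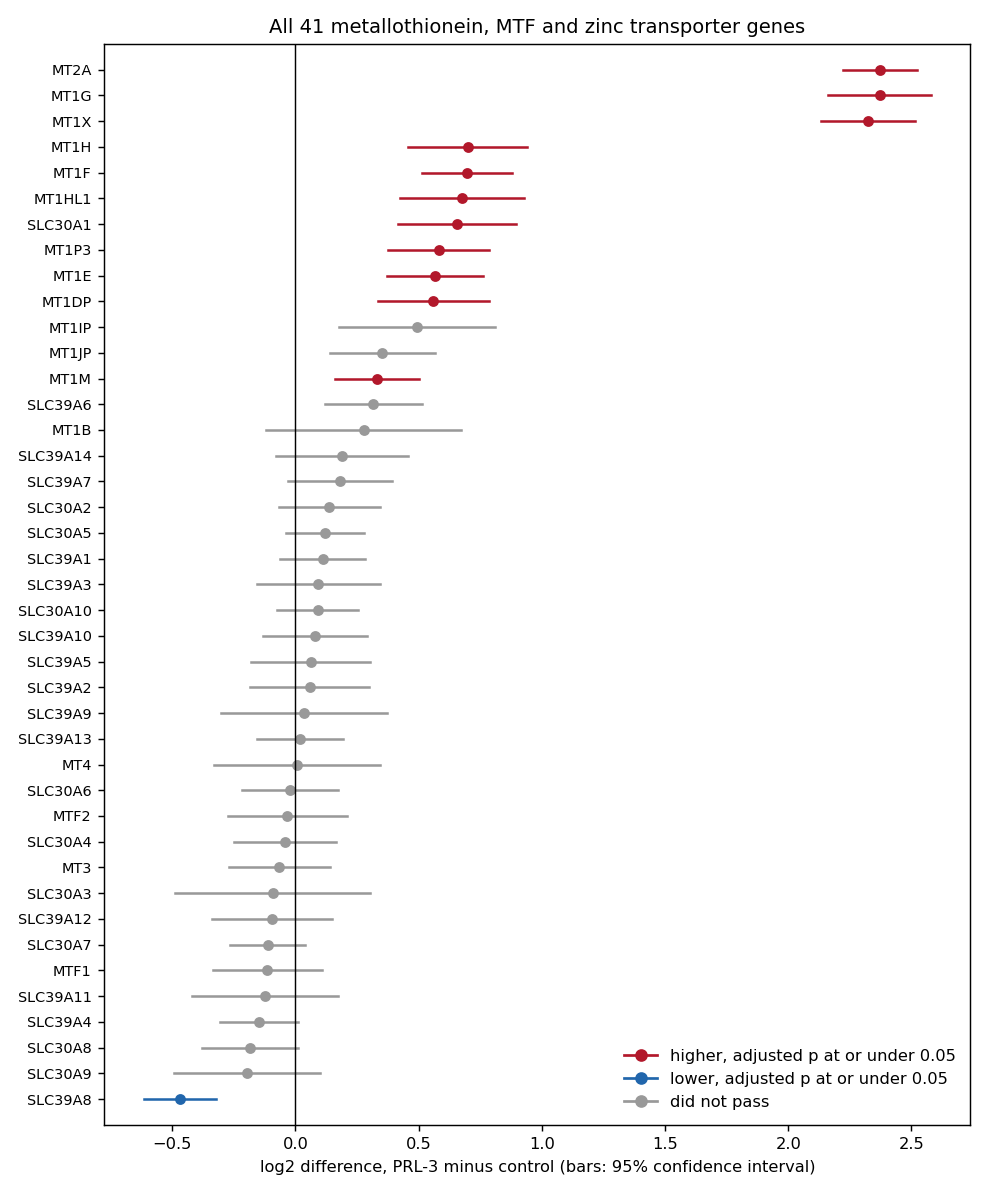
Log2 difference, PRL-3 minus control, of each of the 41 genes, with its 95% confidence interval from limma; red genes passed higher, the blue gene passed lower and grey genes did not pass. MT2A, MT1G and MT1X lie beyond 2, SLC30A1 lies among the smaller metallothionein rises, and SLC39A8 lies lowest at -0.47.

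PRL-3 array 5 was the highest of the PRL-3 arrays in 11 of the 15 metallothionein genes (73.3%), and in 42.3% of all genes. Without that array 9 metallothioneins rose, and without both it and control array 1 also 9, with MT1M lost each time. MT2A, MT1G and MT1X passed in limma whichever array was left out, at 2.34 to 2.40, 2.32 to 2.46 and 2.28 to 2.40. When each gene was tested on its own 6 values with unequal variances, a test that does not share the spread across genes, MT2A alone of the metallothioneins passed (0.0381% of all genes were higher), and 11 of the 15 were higher at an unadjusted p of 0.05, against 7.57% of all genes.

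Of the 15 metallothioneins, 13 lie in the chromosome 16 cluster, and the 6 nearest measured protein-coding genes on each side were set beside them. Of these 12 neighbours 1 rose, 1 fell and 10 did not pass, with a median difference of -0.016, where 4.58% of all genes were higher and 3.11% lower. BBS2, on the MT4 side, differed by 0.03 ± 0.068 and NUP93, next to MT1X, by 0.10 ± 0.091. Both lie directly beside the cluster, and neither passed (adjusted p = 0.901 and 0.654, limma). HERPUD1, a gene of endoplasmic reticulum stress, read 8.39, 8.61 and 8.56 on the PRL-3 arrays, against 8.25, 7.86 and 7.92 on the control arrays, and rose by 0.51 ± 0.114 (adjusted p = 0.0332, limma). NLRC5, which turns on class I antigen presentation genes, differed by -0.36 ± 0.085 (adjusted p = 0.0396, limma). HERPUD1 and NLRC5 each kept their call in only 1 of the 6 fits without an array, with adjusted p up to 0.141 and 0.165 in limma. In gene order, the cluster members that rose all lay between MT2A and MT1X, where MT1JP, MT1B and MT1IP did not pass, and MT4 and MT3, at one end, did not pass either.

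**Figure D3:**
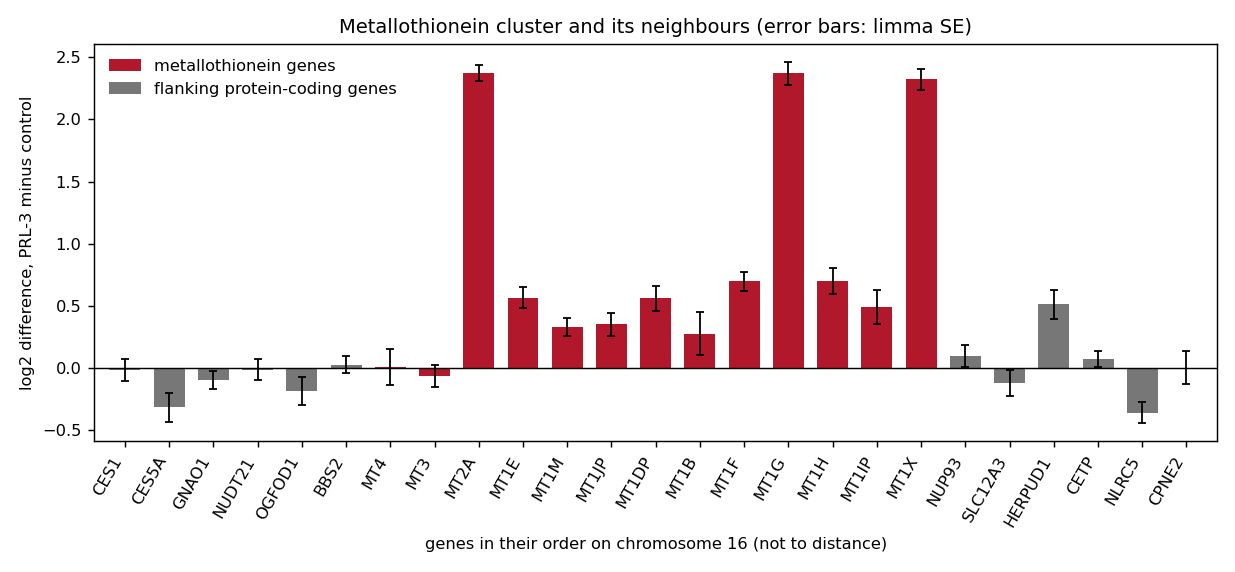
Log2 difference, PRL-3 minus control, of the metallothionein genes (red) and 6 protein-coding genes on each side (grey), in their order on chromosome 16 and not to distance; error bars are limma's standard error. The 3 tall bars are MT2A, MT1G and MT1X, and 10 of the 12 flanking genes did not pass.

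The factors MTF1 and MTF2 did not pass. MTF1, the metal-sensing activator of metallothionein genes, read 8.14, 8.03 and 7.94 on the PRL-3 arrays, against 8.28, 8.18 and 7.98 on the control arrays. MTF2, named for binding a metal response element and now known as a Polycomb protein, read 10.21, 10.09 and 10.33 on the PRL-3 arrays, against 10.05, 10.27 and 10.40 on the control arrays. The groups overlapped in both. The intervals of the difference ran from -0.33 to 0.11 for MTF1 and from -0.28 to 0.21 for MTF2. As background, the MTF1 protein is known to be controlled by zinc binding and by movement into the nucleus.

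Of the 10 SLC30A genes 1 rose, 0 fell and 9 did not pass in limma, where 4.58% of all genes were higher and 3.11% lower. An unadjusted p of 0.05 or less was found in 1 of the 10, and in 20.2% of all genes. SLC30A1, the exporter at the cell surface, read 8.20, 8.51 and 8.14 on the PRL-3 arrays, against 7.56, 7.63 and 7.68 on the control arrays. All PRL-3 values lay above all control values, with PRL-3 array 5 highest. The rise was 0.66 ± 0.104 (1.58-fold, adjusted p = 0.00831, limma), and it passed whichever array was left out (0.54 to 0.73, adjusted p up to 0.0485, limma).

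The other SLC30A genes had differences between -0.20 and 0.14. SLC30A5 and SLC30A6, which pair to load zinc into the secretory pathway, differed by 0.12 ± 0.070 and -0.02 ± 0.085. SLC30A7, which fills the Golgi, differed by -0.11 ± 0.066, and SLC30A9, a mitochondrial exporter, by -0.20 ± 0.129. SLC30A10, known mainly for moving manganese, differed by 0.09 ± 0.071. SLC30A8, the transporter of insulin granules, differed by -0.19 ± 0.085, and SLC30A3, that of synaptic vesicles, by -0.09 ± 0.173. SLC30A4 differed by -0.04 ± 0.090 and SLC30A2 by 0.14 ± 0.089. The groups did not overlap in SLC30A5, higher with PRL-3, nor in SLC30A7 and SLC30A8, lower with PRL-3, but adjusted p was 0.41, 0.41 and 0.273 in limma. Among all genes 24.3% had no overlap between the groups.

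Of the 14 SLC39A genes 1 fell, 0 rose and 13 did not pass in limma. An unadjusted p of 0.05 or less was found in 2, SLC39A8 and SLC39A6. Among all genes 3.11% were lower, 4.58% were higher and 20.2% had such a p. SLC39A8, an importer of zinc, manganese and cadmium, read 9.85, 9.92 and 9.83 on the PRL-3 arrays, against 10.32, 10.34 and 10.35 on the control arrays. The 3 control arrays lay within 0.03 of each other, and every PRL-3 array lay below them. SLC39A8 fell by 0.47 on the log2 scale (SE 0.064, 1.38-fold lower, adjusted p = 0.00431, limma), and it passed whichever array was left out (-0.50 to -0.45, adjusted p up to 0.0303).

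**Figure D4:**
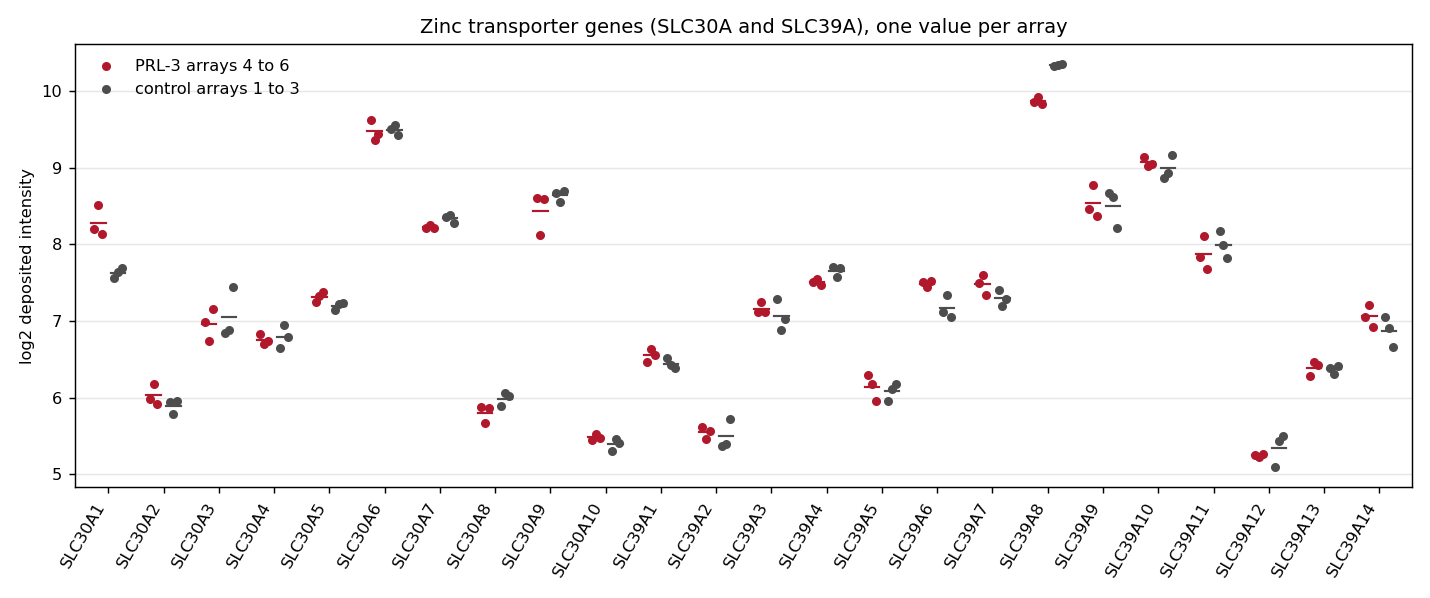
Log2 deposited intensity of the 10 SLC30A and 14 SLC39A genes on the 3 PRL-3 arrays (red, left of each pair) and the 3 control arrays (grey, right), with a line at each group mean. SLC30A1 is the gene with the widest gap upwards and SLC39A8 the one with the widest gap downwards, and 17 of the 24 pairs overlap. The groups do not overlap in 24.3% of all genes.

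SLC39A6, an importer of the cell surface, read 7.50, 7.44 and 7.52 on the PRL-3 arrays, against 7.12, 7.33 and 7.06 on the control arrays. The groups did not overlap, but the difference of 0.32 ± 0.086 did not pass (adjusted p = 0.0686, limma). SLC39A10, its close relative, differed by 0.08 ± 0.092 with overlapping groups. SLC39A14, the relative of SLC39A8 that also carries iron and manganese, differed by 0.19 ± 0.116 (adjusted p = 0.44, limma). SLC39A7, which releases zinc from the endoplasmic reticulum and Golgi, differed by 0.18 ± 0.092, and its 2 further probe sets by 0.18 each. SLC39A4, the importer of intestinal zinc uptake, lay lower on every PRL-3 array but did not pass (-0.15 ± 0.069, adjusted p = 0.277, limma). The other 8, SLC39A1, SLC39A2, SLC39A3, SLC39A5, SLC39A9, SLC39A11, SLC39A12 and SLC39A13, had differences between -0.12 and 0.11 and overlapping groups. Over the 24 transporters 1 rose and 1 fell, against 4.58% and 3.11% of all genes, and their median difference was 0.045.

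Other genes of metal and stress handling were set beside the family by count. Of 17 measured genes of copper handling, among them the importer SLC31A1 and the pumps ATP7A and ATP7B, 0 rose and 0 fell in limma, with 3 at an unadjusted p of 0.05. Among all genes 4.58% were higher and 3.11% lower. In all 20.2% of genes had such a p, so the share at that p is near that of all genes. The 3 were ATP7B, STEAP3 and COMMD1, each lower with PRL-3. In 4 of the 17 copper genes all PRL-3 arrays lay below all control arrays and in 0 above, against 12.2% and 12.1% of all genes. Of 17 measured zinc-related genes outside the SLC30A and SLC39A families 2 rose and 0 fell in limma, beside 4.58% of all genes called higher. This list was broad and also held genes whose products do not move zinc, such as the carbonic anhydrases CA1 and CA2. At an unadjusted p of 0.05 there were 4, again a share near the 20.2% of all genes. TMEM163, a zinc efflux transporter, read 8.658, 9.009 and 8.564 on the PRL-3 arrays, against 8.004, 7.831 and 7.349 on the control arrays. It rose by 1.02 ± 0.178 (2.02-fold, adjusted p = 0.0126, limma), and without control array 2 it did not pass (adjusted p = 0.0544). CA2, a carbonic anhydrase with zinc in its active site, rose by 0.90 ± 0.114 (adjusted p = 0.00352, limma). CA1, another carbonic anhydrase gene, lay lower on every PRL-3 array but did not pass (-0.23 ± 0.078, adjusted p = 0.126, limma). TRPM7 differed by -0.26 ± 0.111 and did not pass (adjusted p = 0.233, limma). Of the 17 differences 5 were above 0 and 12 below, with a median of -0.04.

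Of 18 measured genes of the oxidative and heavy metal stress response 1 rose and 0 fell in limma, with 8 at an unadjusted p of 0.05, beside 4.58% of all genes called higher and 20.2% with such a p. The share called was near that of all genes, while the share at an unadjusted p of 0.05 was above it. In 5 of the 18 all PRL-3 arrays lay above all control arrays, and in 1 below, against 12.1% and 12.2% of all genes. SLC7A11, which takes up cystine for glutathione, read 8.26, 7.97 and 8.34 on the PRL-3 arrays, against 7.67, 7.70 and 7.71 on the control arrays. It rose by 0.49 ± 0.0999 (adjusted p = 0.0236, limma), but passed in only 2 of the 6 fits without an array, with adjusted p up to 0.105. HMOX1, haem oxygenase 1, which cadmium and oxidants induce, had a difference of 0.32 ± 0.079 and did not pass (adjusted p = 0.0506, limma). NQO1, GCLM and TXNRD1, further targets of the oxidant sensor NFE2L2, differed by 0.02, 0.17 and 0.08. PRDX1, a peroxidase gene, and TXN, the thioredoxin gene, differed by 0.32 and 0.39. The ferritin light chain gene FTL differed by 0.39, and GCLC, whose product acts in glutathione synthesis, by -0.31. None of these 7 passed. The 18 differences ran from -0.43 to 0.49, with a median of 0.12.

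Of 11 measured glucocorticoid-responsive genes 2 rose and 0 fell in limma, with 4 at an unadjusted p of 0.05, beside 4.58% of all genes called higher and 20.2% with such a p. SGK1, a kinase named for its induction by serum and glucocorticoid, rose by 0.69 ± 0.099 (adjusted p = 0.00572, limma). DUSP1, a phosphatase of MAP kinases that growth signals also induce, rose by 0.44 ± 0.109 (adjusted p = 0.0496, limma), and lost its call whichever array was left out (adjusted p 0.0504 to 0.185). TSC22D3 and PER1, also induced by glucocorticoids, differed by 0.04 ± 0.095 and 0.11 ± 0.066. ERRFI1 and ZBTB16 differed by 0.40 ± 0.120 and 0.27 ± 0.095 and did not pass (adjusted p = 0.0968 and 0.155, limma). Of the 11 differences 9 were above 0 and 2 below. In 4 of the 11 all PRL-3 arrays lay above all control arrays, and in 1 below, against 12.1% and 12.2% of all genes.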

How the data were processed

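Total RNA of 6 TF-1 samples was labelled with Nugen Applause and Encore kits and hybridised to a whole-transcript array, per the labels' protocols. The table deposited by the authors gives 1 linear intensity for each of 28869 probe sets on each array. The sources used here do not state how the authors summarised, background-corrected or normalized these intensities, and a between-array step can hide a change that most genes share. The labels do not tie the arrays of a group to separate cultures, so p-values cover only the spread among these arrays, which may be technical. They give no batch or date, and the 3 arrays per group limit the precision.

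The log2 of each deposited intensity was used as it stood. The platform annotation gave 1 gene symbol for 19310 probe sets, several for 1752 and none for 7807. Where a gene had more than 1 such probe set (685 genes), the one with the highest mean over all arrays was kept. Differences were tested with limma 3.58.1 (R 4.3.3, lmFit and eBayes), two-sided, with Benjamini-Hochberg adjustment over all 18377 genes and a threshold of 0.05, after the fit had been tested on simulated data. Errors after a difference are limma's standard errors. No gene was filtered as undetected. MT1A, MT1CP, MT1XP1 and MT1P1 were not analysed here.

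The members, lists and settings were chosen with earlier results of these data known. Every member is named, some with their role and some by symbol only. Of each list up to 4 members past the threshold are named, and other list members were named as familiar examples after their values were seen. Gene order came from the RefSeq table of GRCh38.p14. The alternatives were equal medians for all arrays, quantile normalization, a variance trend on intensity with robust estimation, weights per array, an unequal-variance test, 2 cut-offs on the level of dim genes, averaging the probe sets of a gene, testing every probe set, and fits without 1 or 2 arrays. Figures were drawn with matplotlib 3.10.9.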

Additional observations from a re-analysis of the deposited data

Results flagged for a closer look

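A probe set that the comparison of genes did not use, because its annotation holds 2 symbols, NUTF2 and MT1L, also differed between the groups. It read 8.40, 8.08 and 8.33 on the PRL-3 arrays, against 7.36, 7.32 and 7.78 on the control arrays, and the groups did not overlap. The difference was 0.78 ± 0.141 (adjusted p = 0.0276, limma over all 28869 probe sets). No gene is named from it.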

How the results depend on the processing

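None of the genes reported above as past the threshold turned sign in the alternatives run. PTP4A3 (2.80 to 2.90) and MT2A (1.99 to 2.40) passed in all 16. The lowest MT2A value came from the mean of the 3 probe sets annotated to it, including the 2 not taken as a separate reading of MT2A. The unequal-variance test, where each gene rests on its own 6 values, gave 1 member higher (1 metallothionein) and 0 lower, where limma gave 1 lower and 2 were lower at an unadjusted p of 0.05. Over all genes it gave 7 higher and 4 lower, while limma gave 842 and 571. Array weights, taken from the spread of these same arrays, gave 2 members lower (SLC39A8 and SLC30A7), 14 higher, and 2122 higher and 2303 lower over all genes. Leaving out 1 array gave 9 to 11 members higher, 1 to 1 lower, 8 to 10 metallothioneins higher, and over all genes 388 to 792 higher and 178 to 747 lower. The counts over all genes fell by more than 1.5 times without control 2 (388 and 178), PRL-3 4 (405 and 199) and PRL-3 6 (431 and 228), and the lower count also without control 1 (302). In the other settings 8 to 12 members rose and 1 fell, and over all genes 594 to 859 were higher and 409 to 642 lower. The 2 cut-offs on level left 36 and 26 members to test, of which 10 and 8 rose. Over all genes 770 of 13782 and 594 of 9188 were higher with these cut-offs. MT1JP also passed after quantile normalization (0.36, adjusted p = 0.0377, limma), with equal medians, with array weights and without control 3. MT1IP passed without control 2 (0.64, adjusted p = 0.0326, limma). No paired analysis was possible because the groups share no replicate numbers.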

Other observations

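The genes outside the family whose log2 values followed MT2A most closely over the 6 arrays were MSRA, which repairs oxidised methionine (Pearson r = 0.9997), LIFR, a cytokine receptor gene (0.9989), PTP4A3 itself (0.9988), CDH2, the N-cadherin gene (0.9986), and DCLRE1A, a DNA repair nuclease gene (0.9983). The 6 arrays fall into 2 groups, so this measure mostly ranks genes whose groups are far apart for their spread, and it is given as a description.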
